A study of Mus musculus with 9 samples.

Results

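The 35 coagulation and fibrinolysis genes described here encode the clotting factors, the inhibitors that hold them in check, and the plasminogen system that dissolves fibrin. They were chosen by gene symbol, and each of the 35 was found among the 17442 genes of the deposited table of liver RNA. Of these, 32 had a mean of 10 normalised reads or more over the 9 livers and were tested, while F13a1, Plat and Plaur lay under that mean. The livers came from 5 male Msr1-/- mice and 4 male wild-type (Msr1+/+) mice of strain C57BL/6, whose ages are not given in the labels. Msr1 encodes macrophage scavenger receptor 1, a macrophage receptor for modified lipoproteins. The 9 mice were kept for 16 weeks on food high in fat and cholesterol and are labelled as having non-alcoholic fatty liver disease, so no liver here stands for a healthy or chow-fed animal. Each animal gave 1 library of whole liver, and how the Msr1 deletion was made is not given in the sources used here.

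Clotting begins when tissue factor on cells outside the blood meets factor VII, and a chain of serine proteases then leads to thrombin, which turns fibrinogen into fibrin. Antithrombin, the protein C pathway and tissue factor pathway inhibitor limit that chain, and plasmin, made from plasminogen, later cuts the fibrin. Hepatocytes make most of these proteins and secrete them into plasma, while endothelial cells, platelets and macrophages supply others, and the fibrinogen genes are known acute phase genes.

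Several of the genes lie side by side on a chromosome, in the build mm10. The fibrinogen chain genes Fgg, Fga and Fgb sit within 42.1 kb of chromosome 3 (83007724 to 83049863), and Hrg, Kng2 and Kng1 within 131 kb of chromosome 16 (22951072 to 23082078). On chromosome 8, which also carries Msr1, F7, F10 and Proz lie within 49.99 kb (13026034 to 13076026), 26.5 to 26.6 Mb from Msr1, and F11 and Klkb1 lie within 53.7 kb (45241174 to 45294859), 5.66 and 5.69 Mb from Msr1. Promoter windows of 250 bases before the annotated start were taken from RefSeq (GRCm38.p6), which held a window for 27 of the 35 genes. The fibrinogen promoters are shown because their genes serve 1 protein and were compared as a set, and those of Hrg and F11 because these genes had the smallest p among the 32, Hrg with all 9 livers and F11 without wild type 3. Capitals mark CTGGGA, the core of the IL-6 response element known from acute phase genes, on either strand. The sequences are 5′ to 3′ on the gene's own strand. For Fga the last 77 bases before the RefSeq start are left out, since GENCODE M21 places a transcript there.
Fgg (chr3:83007474-83007723, plus strand): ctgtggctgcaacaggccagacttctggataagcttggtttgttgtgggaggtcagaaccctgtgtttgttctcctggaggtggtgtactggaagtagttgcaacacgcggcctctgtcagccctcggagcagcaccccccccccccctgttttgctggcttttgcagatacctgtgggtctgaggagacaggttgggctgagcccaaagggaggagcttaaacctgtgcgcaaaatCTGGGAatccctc
Fga (chr3:83025903-83026075, plus strand): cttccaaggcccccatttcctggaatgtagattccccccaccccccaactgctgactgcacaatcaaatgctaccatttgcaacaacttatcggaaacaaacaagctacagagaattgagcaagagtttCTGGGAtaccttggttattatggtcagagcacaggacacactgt
Fgb (chr3:83049864-83050113, minus strand): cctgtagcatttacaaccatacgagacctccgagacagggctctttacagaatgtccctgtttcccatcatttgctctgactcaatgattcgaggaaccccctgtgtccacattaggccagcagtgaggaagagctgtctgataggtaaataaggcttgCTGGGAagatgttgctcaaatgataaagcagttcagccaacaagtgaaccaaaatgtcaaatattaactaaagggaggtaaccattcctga
Hrg (chr16:22950822-22951071, plus strand): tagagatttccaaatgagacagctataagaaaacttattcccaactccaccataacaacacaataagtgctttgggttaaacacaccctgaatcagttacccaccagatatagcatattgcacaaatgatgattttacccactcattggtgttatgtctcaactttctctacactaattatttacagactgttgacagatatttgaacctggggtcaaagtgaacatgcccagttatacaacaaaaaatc
F11 (chr8:45262032-45262281, minus strand): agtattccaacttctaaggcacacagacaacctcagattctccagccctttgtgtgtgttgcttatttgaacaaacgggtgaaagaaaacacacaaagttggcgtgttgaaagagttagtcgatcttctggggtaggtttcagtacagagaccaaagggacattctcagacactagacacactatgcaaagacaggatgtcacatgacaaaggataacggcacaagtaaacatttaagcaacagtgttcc

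The letters CTGGGA stood in the windows of all 3 fibrinogen genes, beginning 13 bases before the start of Fgg, 121 before that of Fga and 91 before that of Fgb. They were not in the Hrg or F11 window. Of the 27 windows, 11 (40.7%) held CTGGGA, against 27.0% of all 32851 RefSeq windows of that length. TTNNGNAA, a C/EBP pattern, was in 13 windows (48.1%, against 36.8% of all), TTCNNNGAA, a STAT pattern, in 4 (14.8%, against 7.02%), TATAAA in 2 (7.41%, against 12.4%), and CAAAGTCC, an HNF4 pattern, in 0 (against 1.2%). Each of the 27 genes was counted by 1 window although they held 29, while the shares of all windows count every window, so the 2 shares are unlike. Both strands were searched, matches of different patterns can overlap, and a match of letters is a description and not a bound site.

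Depth was even across the libraries, at 15006773 to 18238932 recovered reads each. Msr1 itself stood at 157, 153, 209, 186 and 172 normalised reads in the Msr1-/- livers, against 256, 202, 461 and 194 in the wild-type livers. Its mean log2 difference was -0.58 (two-sided exact permutation p = 0.0476), and -0.31 without wild type 3 (exact permutation p = 0.107). The values in wild type 2 and wild type 4 lay below that in Msr1-/- 3, and the genotypes used throughout are those of the labels. Wild type 3 stood apart from the other 8 livers on the leading principal component (41.0% of the variance), and the limma tests below were therefore also run without it. Hepatocyte markers were abundant in all 9 livers, with the 9 genes found summing to 1737045 to 2560514 normalised reads in Msr1-/- livers, against 1818697 to 2101305 in wild type 1, 2 and 4 and 1409154 in wild type 3. As a share of each liver's recovered reads they made up 10.9% to 13.5% in Msr1-/- livers, against 11.3% to 11.8% in wild type 1, 2 and 4 and 10.6% in wild type 3. Whole liver was measured, so fewer cells of a type and less RNA per cell cannot be told apart in any of these values.

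The genes covered a very wide range of levels. Per kilobase of transcript, over the 9 livers, Fgg, the fibrinogen gamma chain, had the highest mean at 21395 ± 5211 normalised reads, followed by Kng1, the kininogen from which bradykinin is released, at 19957 ± 4689. Fgb and Fga, the beta and alpha chains, followed at 14030 ± 3174 and 13244 ± 3599, Plg, which encodes plasminogen, at 11059 ± 2086, and F2, which encodes prothrombin, at 10440 ± 1232 (SD, n = 9 each). The means of Fgg and Kng1 lay within an SD of each other, as did those of Fgb and Fga and those of Plg and F2. This order rests on 1 annotated transcript length per gene, such as 1695 bases for Fgg and 3810 for Fgb. Undivided by length, Fgb averaged 47511 in Msr1-/- and 60881 in wild-type livers, above Fgg at 32596 and 40851. At the low end were the endothelial and leukocyte genes Plaur at 6.40 ± 5.84, Vwf at 4.85 ± 1.88, Plat at 3.27 ± 4.52 and F13a1 at 0.996 ± 1.07 per kilobase. Together the 35 genes took 1.71% to 2.17% of all reads in Msr1-/- livers, against 1.94% to 2.39% in wild-type livers, ranges that overlap. The 3 fibrinogen genes alone took 0.517% to 0.920% in Msr1-/- livers, against 0.675% to 0.987% in wild-type livers.

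**Figure D1:**
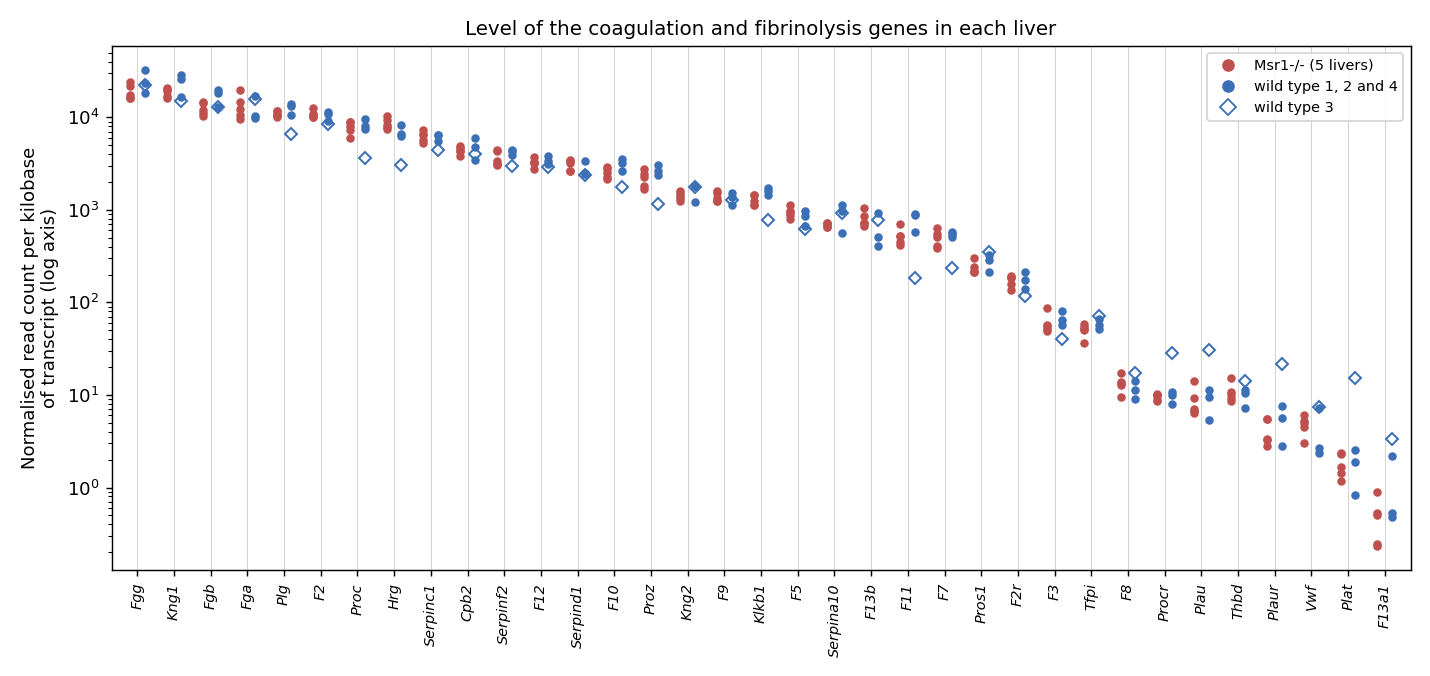
Normalised read count per kilobase of transcript (log axis) of the 35 genes in each of the 9 livers, ordered by mean level, with the 5 Msr1-/- livers left of the 4 wild-type livers and wild type 3 as an open diamond. Levels run from 21395 for Fgg to 0.996 for F13a1, and in the deposited scaling wild type 3 lies below the other livers for many abundant genes and above them for several low ones.

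The genotype comparison asked whether the liver's clotting genes differ without the receptor on this diet. None of the 32 tested genes passed an adjusted p of 0.05 in limma, in a fit that called 177 of 12937 genes, 1.37% of those tested, 86 higher and 91 lower in Msr1-/-. At an unadjusted p of 0.05, 1 of the 32 was called, which was Hrg, against 15.3% of all tested genes. With all 9 livers, edgeR and DESeq2 on the recovered reads also called 0 of the 32. In these fits edgeR called 185 and DESeq2 773 of the 12937 genes. The 2 genotypes were fully apart in 0 of the 32 genes, against 7.29% of all tested genes. The log2 differences, Msr1-/- minus wild type, had a median of -0.01 over the 32 genes, 15 positive and 17 negative, beside a median of 0.02 over all tested genes. The split moved with the method, to 11 positive and 21 negative under quantile normalization and to 12 and 20 in edgeR, in DESeq2 and with array weights. The 95% interval of the difference lay within 2-fold either way for 29 of the 32 genes and within 1.5-fold for 16, while of all 12937 tested genes 9882 and 5884 had intervals that narrow. Procr, Plau and Hrg were the 3 whose intervals reached past 2-fold.

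**Figure D2:**
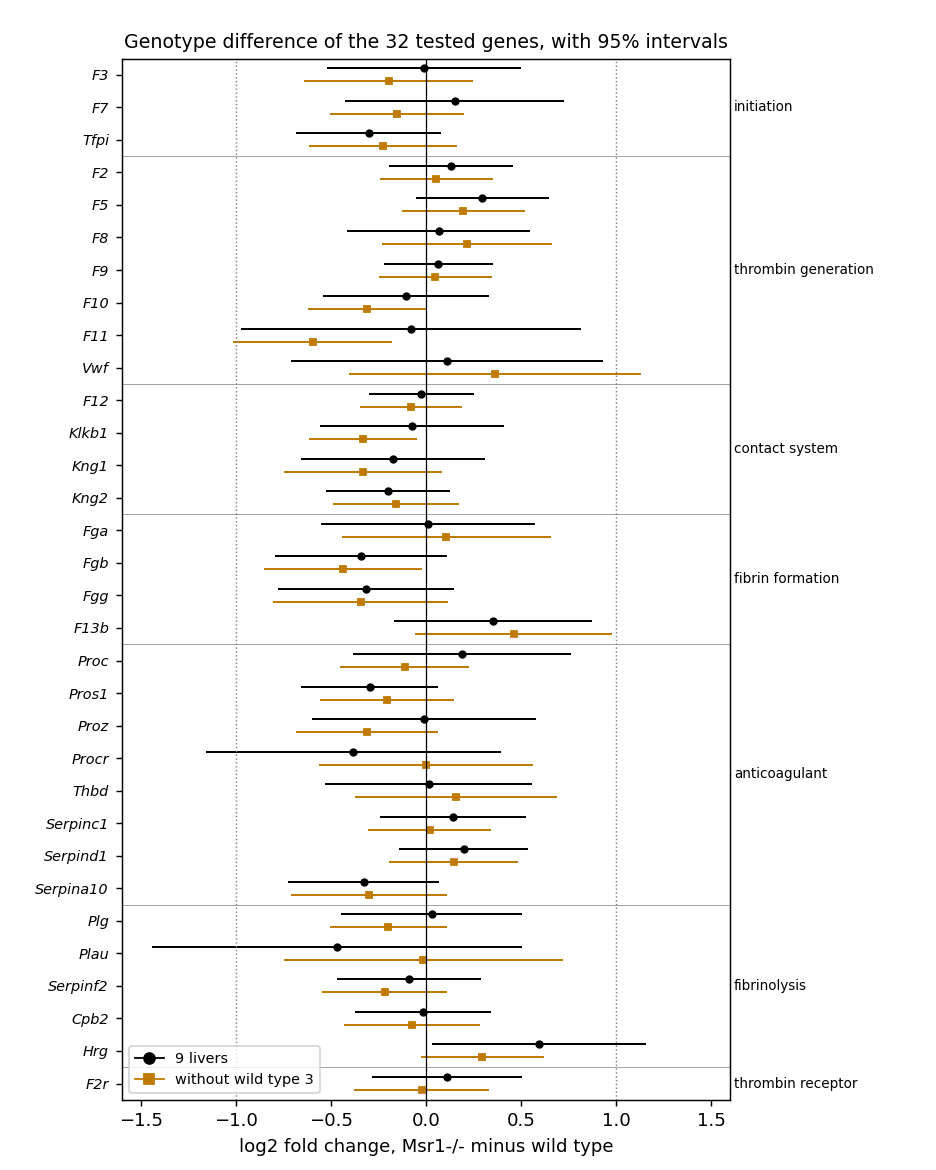
Log2 fold change, Msr1-/- minus wild type, of the 32 tested genes grouped by role, with limma's 95% intervals for all 9 livers (black circles) and without wild type 3 (orange squares). Dotted lines mark 2-fold. With 9 livers the Hrg interval alone leaves 0 out, and without wild type 3 those of F11, Klkb1, Fgb and F10 do.

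Of the 3 genes of the initiation step, namely tissue factor, factor VII and their inhibitor, 0 were called. Tfpi, the inhibitor of tissue factor and factor VII made largely by endothelial cells, had the smallest p of them, with 109, 73.4, 119, 103 and 105 normalised reads in Msr1-/- livers, against 114, 106, 145 and 136 in wild-type livers. The ranges overlapped, with the lowest value in Msr1-/- 2 and the highest in wild type 3. The log2 difference was -0.30 ± 0.17 (SE, limma adjusted p = 0.453). F7, which encodes factor VII, averaged 924 ± 193 in Msr1-/- livers and 866 ± 289.9 in wild-type livers. F3, which encodes tissue factor, averaged 112 ± 29.2 in Msr1-/- livers and 114 ± 32.2 in wild-type livers (SD, n = 5 Msr1-/- and 4 wild type, as for all means below). In the deposited scaling wild type 3 was the lowest of the 9 livers for both F7 and F3.

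The 7 genes of thrombin generation were likewise without a call. F5, which encodes the cofactor of factor X, had the smallest p among them, with 8353, 7173, 5975, 6612 and 7103 normalised reads in Msr1-/- livers, against 7158, 6412, 4648 and 4963 in wild-type livers. In the deposited scaling wild type 3 and 4 were the lowest 2 of the 9, Msr1-/- 1 the highest, and the other livers were mixed. Its log2 difference was 0.30 ± 0.16 (limma adjusted p = 0.419), and 0.20 ± 0.15 without wild type 3. F2, the gene of prothrombin, averaged 21557 ± 2118 in Msr1-/- livers and 19754 ± 2759 in wild-type livers, with a 95% interval of -0.19 to 0.45 for the log2 difference. F9, whose product is lacking in haemophilia B, averaged 3799 ± 426 in Msr1-/- livers and 3639 ± 484 in wild-type livers, with an interval of -0.22 to 0.35. These 2 intervals exclude a change of 1.5-fold in either direction. F10, the protease that makes thrombin, averaged 6314 ± 824 in Msr1-/- livers and 6966 ± 1929 in wild-type livers, and F11, which activates factor IX, 1171 ± 255 in Msr1-/- livers and 1434 ± 759 in wild-type livers. F8, the cofactor lacking in haemophilia A, and Vwf, which carries it in plasma, are made by endothelial cells and were low. F8 averaged 131 ± 27.3 in Msr1-/- livers and 126 ± 34.7 in wild-type livers, and Vwf 42.3 ± 9.84 in Msr1-/- livers and 43.6 ± 24.6 in wild-type livers. The 12 endothelial markers gave 0 calls, 0 unadjusted p under 0.05, a median log2 difference of -0.01, and sums of 3645 to 4187 in Msr1-/- livers, against 3527 to 4439 in wild-type livers.

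All 4 contact system genes had negative log2 differences, between -0.20 and -0.02, and 0 were called. Kng2, a close paralog of Kng1, had the smallest p of them, with 3458, 2862, 3261, 3086 and 3682 in Msr1-/- livers, against 4144, 4179, 4082 and 2763 in wild-type livers. Wild type 4 had the lowest value of all 9, so the ranges overlapped although wild type 1, 2 and 3 were the highest. The log2 difference was -0.20 ± 0.15 (limma adjusted p = 0.586). Kng1 averaged 33956 ± 3637 in Msr1-/- livers and 39593 ± 12432 in wild-type livers. Kng1 over Kng2, per kilobase, was 13.1 ± 1.31 in Msr1-/- livers and 13.2 ± 3.24 in wild-type livers, where wild type 3 stood at 8.44 and the other 3 averaged 14.7 ± 0.970, and reads of the 2 genes can be hard to assign between such close copies. F12, which starts the contact pathway, was among the steadiest genes, at 6352 ± 626 in Msr1-/- livers and 6464 ± 723 in wild-type livers with an interval of -0.29 to 0.25. Klkb1, which encodes plasma prekallikrein, averaged 6693 ± 831 in Msr1-/- livers and 7314 ± 2211 in wild-type livers.

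The fibrinogen chains and factor XIII genes that build the clot gave 0 calls. Fgb had the smallest p of them, with 54675, 42084, 39371, 46226 and 55198 in Msr1-/- livers, against 75787, 69294, 49269 and 49171 in wild-type livers. Wild type 1 and 2 stood above all other livers, while wild type 3 and 4 lay inside the Msr1-/- range. The log2 difference was -0.34 ± 0.20 (limma adjusted p = 0.477). Fgg had 41104, 29738, 27657, 27347 and 37135 in Msr1-/- livers, against 55267, 39749, 37511 and 30879 in wild-type livers, a log2 difference of -0.31 ± 0.21 (limma adjusted p = 0.542). Fga had 50515, 31773, 27262, 24831 and 37806 in Msr1-/- livers, against 44032, 26647, 40314 and 25179 in wild-type livers, a log2 difference of 0.01 ± 0.25 (limma adjusted p = 0.991). Msr1-/- 1 held the highest Fga of all 9 livers, and the genotypes spanned nearly the same range. The chain genes did not keep a fixed proportion between animals. Per kilobase, Fgb over Fga was 0.974 ± 0.192 in Msr1-/- livers and 1.27 ± 0.389 in wild-type livers, and Fgg over Fga 1.48 ± 0.162 in Msr1-/- livers and 1.87 ± 0.351 in wild-type livers. Without wild type 3 the wild-type values were 1.42 ± 0.309 for Fgb over Fga and 2.02 ± 0.222 for Fgg over Fga (SD, n = 3). The Fgg over Fga ratio then ran from 1.24 to 1.68 in Msr1-/- livers, against 1.87 to 2.28 in wild type 1, 2 and 4, ranges that do not overlap, while wild type 3 stood at 1.42. Fgb over Fgg, which ran from 0.592 to 0.752 in Msr1-/- livers and from 0.584 to 0.776 in wild-type livers (from 0.610 without wild type 3), varied less than the ratios to Fga. Without wild type 3, Fgb over Fga still overlapped, at 0.735 to 1.26 in Msr1-/- livers and 1.17 to 1.77 in wild type 1, 2 and 4. Of all tested single genes, 14.2% did not overlap without wild type 3, and no such share was taken for ratios. These ratios describe the livers and were given no test, and their absolute size rests on the annotated transcript lengths. F13b, the carrier subunit of factor XIII, averaged 1916 ± 359 in Msr1-/- livers and 1559 ± 572 in wild-type livers, a log2 difference of 0.35 ± 0.23 (limma adjusted p = 0.538). F13a1, the enzyme subunit that crosslinks fibrin, is a gene of macrophages and platelets and was barely read. It had 2, 1, 1, 3 and 2 reads in Msr1-/- livers, against 8, 2, 17 and 2 in wild-type livers, too few to place the genotypes apart.

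The anticoagulant genes, 8 in number, gave 4 positive and 4 negative log2 differences and 0 calls. Serpina10, which encodes the protein Z-dependent inhibitor of factor X, had the smallest p of them, with 2461, 2293, 2288, 2521 and 2545 in Msr1-/- livers, against 3954, 3392, 3226 and 1965 in wild-type livers. The Msr1-/- livers lay close together, above wild type 4 and below the other 3 wild-type livers. The log2 difference was -0.33 ± 0.18 (limma adjusted p = 0.428). Proz, the gene of protein Z itself, averaged 7371 ± 1477 in Msr1-/- livers and 7757 ± 2735 in wild-type livers. Serpinc1, which encodes antithrombin, averaged 31182 ± 4011 in Msr1-/- livers and 28405 ± 4829 in wild-type livers, and Serpind1, which encodes heparin cofactor II, 6669 ± 913 in Msr1-/- livers and 5837 ± 1089 in wild-type livers. Proc, the gene of protein C, averaged 12331 ± 1914 in Msr1-/- livers and 11364 ± 3986 in wild-type livers. Pros1, the gene of its cofactor protein S, averaged 783 ± 119 in Msr1-/- livers and 969.9 ± 197 in wild-type livers, a log2 difference of -0.30 ± 0.16 (limma adjusted p = 0.432). Thbd and Procr, which encode the endothelial receptors thrombomodulin and the protein C receptor, were low. Thbd averaged 40.4 ± 9.97 in Msr1-/- livers and 40.3 ± 10.95 in wild-type livers. Procr lay between 13.8 and 16.4 in Msr1-/- livers, against 12.7, 16.0 and 17.1 in wild type 2, 1 and 4 and 45.5 in wild type 3.

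Hrg, which encodes histidine-rich glycoprotein, a plasma protein that binds plasminogen and heparin, was the gene with the smallest p of all 32. It had 12988, 13542, 16077, 14354 and 18039 in Msr1-/- livers, against 10924, 14265, 5303 and 11437 in wild-type livers. Wild type 1, 3 and 4 lay below every Msr1-/- liver, wild type 2 lay among them, and wild type 3 was the lowest of all 9. The log2 difference was 0.59 ± 0.25, with a 95% interval of 0.04 to 1.15, unadjusted p of 0.0383 and a limma adjusted p of 0.287, so it did not pass the threshold. Without wild type 3 the difference was 0.30 ± 0.15 (limma adjusted p = 0.266). Among the other fibrinolysis genes, Plg averaged 30269.6 ± 1851 in Msr1-/- livers and 30764 ± 9133 in wild-type livers. Serpinf2, which encodes the plasma inhibitor of plasmin, averaged 8038 ± 1454 in Msr1-/- livers and 8542 ± 1453 in wild-type livers. Cpb2, the gene of a carboxypeptidase that protects fibrin, averaged 6512 ± 595 in Msr1-/- livers and 6706 ± 1596 in wild-type livers. None of these 3 passed the test, with log2 differences between -0.09 and 0.03.

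The plasminogen activators and their receptor are genes of endothelial cells, macrophages and other cells, and were low in whole liver. Plau, which encodes urokinase, had 32.9, 15.7, 21.9, 16.4 and 15.0 in Msr1-/- livers, against 22.5, 12.7, 71.4 and 26.6 in wild-type livers. Plat, which encodes tissue plasminogen activator, had 4.24, 2.94, 3.65, 5.85 and 6.01 in Msr1-/- livers, against 6.42, 2.11, 38.4 and 4.74 in wild-type livers. Plaur, the urokinase receptor gene, had 4.24, 4.89, 8.22, 8.19 and 5.01 in Msr1-/- livers, against 4.28, 8.44, 32.2 and 11.4 in wild-type livers. Wild type 3 was the highest liver for all 3, and the other 8 livers overlapped. The 12 macrophage markers summed to 5334 to 7187 in Msr1-/- livers, against 8744 to 11359 in wild type 1, 2 and 4 and 18953 in wild type 3. All 12 had a negative log2 difference (median -0.91), of which C1qa and Spic passed the test, and without wild type 3 the median was -0.67 and 5 of the 12 passed. The 8 monocyte markers summed to 653 to 983 in Msr1-/- livers, against 1120 to 1754 in wild type 1, 2 and 4 and 5752 in wild type 3. The 5 of them that were tested had a median of -1.47, with 0 calls and 4 unadjusted p under 0.05, and without wild type 3 a median of -1.06 with 2 called lower. The part of either list in these values was not tested, and none of either list was at 0 in every liver.

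F2r, the gene of a cell surface receptor that thrombin cleaves, had 640.1, 614, 451, 631 and 522 in Msr1-/- livers, against 709, 576, 395 and 467 in wild-type livers. The ranges overlapped, wild type 1 and 3 being the highest and lowest of the 9. Its log2 difference was 0.11 ± 0.18 (limma adjusted p = 0.845), and -0.02 without wild type 3, a change of sign.

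Wild type 3 widened the spread of the wild-type group for many of the genes. The coefficient of variation among wild-type livers was 33.5% for F7 and 35.8% for Hrg with it, and 5.26% and 14.7% without it. For other genes the spread was larger without wild type 3, as for F13b (36.7% with it, 45.0% without) and Serpina10 (26.8% and 33.0%). Wild type 3 was the lowest of the 9 livers for 16 of the 35 genes and the highest for 8. Of all tested genes it was the lowest for 25.5% and the highest for 26.5%. The pattern was then read by textbook source, a split chosen with earlier results of these data known. Of the 24 genes whose plasma proteins are made chiefly by hepatocytes, wild type 3 was the lowest liver for 14 and the highest for 1, Pros1. Of the 11 genes expressed chiefly by other cells or carried on cell surfaces, wild type 3 was the highest for 7, namely Tfpi, Vwf, F13a1, Procr, Plat, Plau and Plaur. It was the lowest for 2, F3 and F2r. F13a1, Plat and Plaur lay under the mean of 10, so they are not among the tested genes behind the shares of all tested genes. These ranks rest on the authors' size factors. By share of each liver's recovered reads, a scaling chosen after seeing the data, wild type 3 was the lowest liver for 8 of the 24 and the highest for 3, and the lowest for 0 of the 11 and the highest for 9, beside 11.3% and 48.2% of all tested genes. F7, F10, F11, Klkb1, Proc, Proz, Plg and Hrg were lowest in wild type 3 in both scalings, while F2, F5, Kng1, Serpinc1, Serpind1 and Serpinf2 were lowest there in the deposited scaling alone. Together the 35 genes took 2.09% of the reads of wild type 3, inside the range of the other livers. F11 was at 0.233 of the mean of the other 3 wild-type livers, and F7, Proc, Proz and Hrg at 0.432 to 0.434, while Plat was at 8.69 times that mean. For the fibrinogen chains wild type 3 ranked in the middle or above, at 5, 6 and 7 from the lowest for Fgb, Fgg and Fga. The sum of the 9 hepatocyte markers was also lowest in wild type 3 and the macrophage and monocyte sums highest. The 10 stellate cell and fibroblast markers summed to 5948 to 6781 in Msr1-/- livers, against 6117 to 7536 in wild type 1, 2 and 4 and 12943 in wild type 3, which was the highest liver for 8 of them. The 6 cholangiocyte and epithelial markers summed to 249.5 to 547 in Msr1-/- livers, against 620.3 to 703 in wild type 1, 2 and 4 and 1693 in wild type 3, the highest liver for all 6. The part of these cell types in the pattern was not tested.

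**Figure D3:**
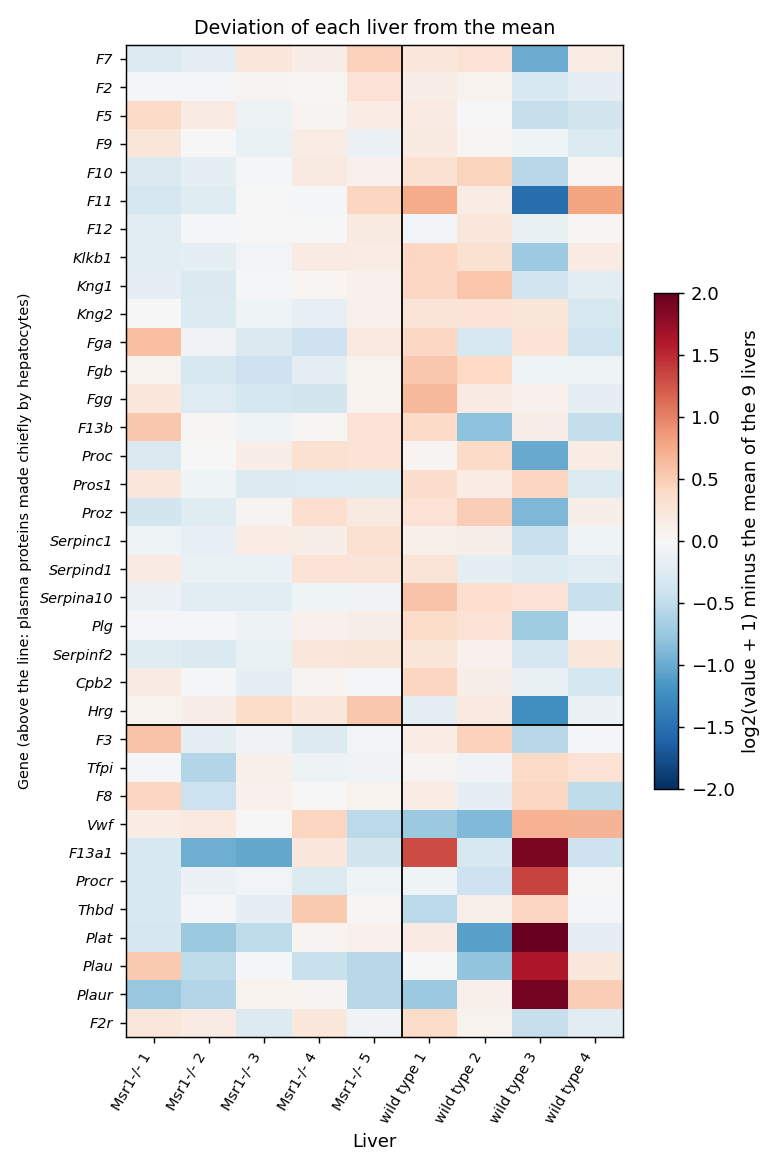
Deviation of each liver from the mean of the 9 livers, in log2(value + 1) of the deposited values, for the 24 genes of hepatocyte-made plasma proteins (above the line) and the 11 other genes (below it), with Msr1-/- livers left of wild-type livers. Red is above and blue below the mean. The wild type 3 column is mostly blue above the line and mostly red below it.

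Without wild type 3, limma called 629 of 12823 genes (4.91%) and still 0 of the 32. At an unadjusted p of 0.05, 4 of the 32 were called, each lower in Msr1-/-, against 21.5% of all tested genes, and they were F11, Klkb1, Fgb and F10. Klkb1 was the 1 gene whose genotypes did not overlap, against 14.2% of all tested genes. DESeq2 on the recovered reads of these 8 livers called 1059 genes (8.26%) and 1 of the 32, F11, while edgeR called 656 genes and 0 of the 32. The median log2 difference of the 32 was then -0.10, 12 positive and 20 negative, beside 0.00 over all tested genes.

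F11 (chromosome 8, 45241174 to 45262031, minus strand) had 930.5, 996, 1178, 1165 and 1585 normalised reads in Msr1-/- livers, against 1983, 1302, 413 and 2039.7 in wild-type livers. With wild type 3 the wild-type livers surrounded the Msr1-/- livers on both sides, and the log2 difference was -0.08 ± 0.40 (limma adjusted p = 0.961). Without it the wild-type mean was 1775 ± 410.5 (n = 3), the log2 difference was -0.60 ± 0.19 in limma (adjusted p = 0.100) and -0.60 in DESeq2, where F11 fell past the threshold (adjusted p = 0.0406). In edgeR the adjusted p was 0.0910 for the same livers, and over the 22 alternatives it ran from 0.0406 to 0.999. Wild type 2 lay below Msr1-/- 5 even then, so the genotypes still overlapped.

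Klkb1 (chromosome 8, 45266689 to 45294859, minus strand), the neighbour of F11, had 5874, 5937, 6537, 7601 and 7513 in Msr1-/- livers, against 9043, 8445, 4108 and 7659.6 in wild-type livers. Wild type 1, 2 and 4 lay above all 5 Msr1-/- livers and wild type 3 below them. The log2 difference was -0.07 ± 0.22 with wild type 3 (limma adjusted p = 0.925) and -0.33 ± 0.13 without it (limma adjusted p = 0.161). F11 and Klkb1 are related genes that arose by duplication, and F11 over Klkb1 per kilobase was 0.408 ± 0.0539 in Msr1-/- livers and 0.434 ± 0.170 in wild-type livers, where wild type 1, 2 and 4 ran from 0.361 to 0.624 and wild type 3 stood at 0.236. F10 (chromosome 8, 13037308 to 13056676, plus strand) had 5325, 5716, 6313, 7356 and 6858 in Msr1-/- livers, against 8019, 8808, 4407 and 6630.3 in wild-type livers. It too had wild type 3 as its lowest value, with a log2 difference of -0.10 ± 0.20 with wild type 3 and -0.31 ± 0.14 without it (limma adjusted p = 0.874 and 0.226). The Fgb difference was -0.44 ± 0.19 without wild type 3 (limma adjusted p = 0.206), close to its value with all 9 livers. F11, Klkb1 and F10 were singled out after their values were seen. They lie on the chromosome of Msr1, as do F7, Proz and Plat, and whether position bears on these values was not tested.

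**Figure D4:**
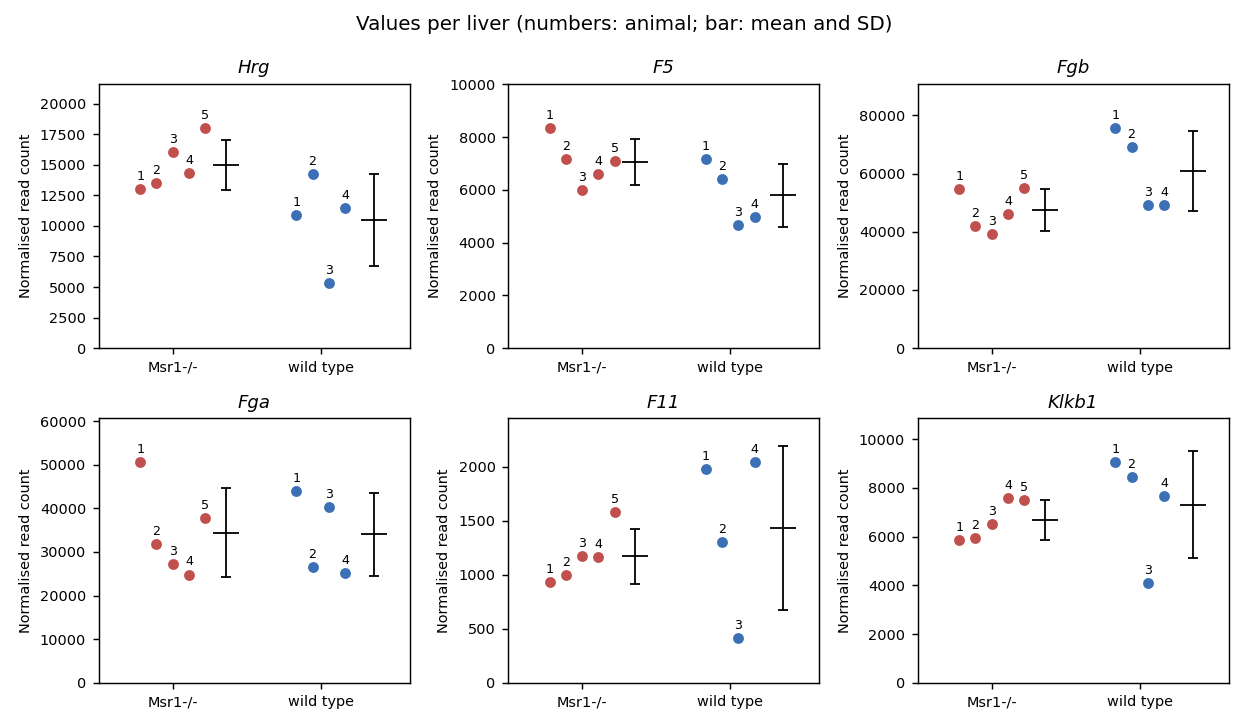
Normalised read counts of Hrg, F5, Fgb, Fga, F11 and Klkb1 in each liver, numbered by animal, with Msr1-/- left of wild type and bars for mean and SD (n = 5 and n = 4). In the deposited scaling wild type 3 is the lowest liver for Hrg, F5, F11 and Klkb1, and not for Fgb or Fga.

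Other genes around the pathway were read for comparison. Of 45 further coagulation, platelet and fibrinolysis genes, 33 were tested, and 1 passed, in the lower direction. This was Fgl1 (chromosome 8, 41191434 to 41215156, minus strand), which encodes a fibrinogen-like protein secreted by hepatocytes, with 1726, 1379, 1167, 1017 and 1168 normalised reads in Msr1-/- livers, against 19338, 21861, 3385 and 3394 in wild-type livers. Every wild-type liver lay above every Msr1-/- liver, and the log2 difference was -2.72 ± 0.55 (limma adjusted p = 0.0410), -3.15 without wild type 3. The call was lost on leaving out any Msr1-/- liver, wild type 1 or wild type 2, where the log2 difference ran from -2.83 to -2.25 and the limma adjusted p from 0.0834 to 0.0991. Fgl1 lies 1.61 Mb from Msr1 on the same chromosome, closer than F11 and Klkb1, and whether position bears on its values was not tested. Eno1, a glycolytic enzyme that also binds plasminogen, passed in the higher direction without wild type 3 (log2 difference 0.80, limma adjusted p = 0.00392), with 2246 to 2877 normalised reads in Msr1-/- livers, against 1398 to 1646 in wild type 1, 2 and 4 and 3525 in wild type 3. The median log2 difference of the 33 genes was 0.06.

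Genes that act on the factors after or before they are made gave no call in limma with all 9 livers. The 5 genes of the vitamin K cycle and of factor V and VIII transport, which include the carboxylase gene Ggcx and the reductase gene Vkorc1, had a median log2 difference of 0.13, 4 positive and 1 negative, and 0 had an unadjusted p under 0.05. The 9 tested genes of IL-6 and acute phase signalling had a median of -0.07, 2 positive and 7 negative, and 0 had an unadjusted p under 0.05. Without wild type 3 each of these lists had 0 calls and 1 unadjusted p under 0.05. In the vitamin K and transport list this was Mcfd2 (log2 difference 0.39, limma adjusted p = 0.164). In the IL-6 list it was Socs3 (-0.97, limma adjusted p = 0.161). Of 12 hepatocyte transcription factor genes, 8 were positive and 4 negative, with a median of 0.16, and 1 had an unadjusted p under 0.05. Without wild type 3, 5 were positive and 7 negative, with a median of -0.05. Foxa3 had 379, 612, 493, 654 and 594 in Msr1-/- livers, against 910.0, 1100.4, 817 and 778 in wild-type livers, groups that do not overlap (log2 difference -0.73 ± 0.17, limma adjusted p = 0.0639), and it passed the threshold without wild type 3 (limma adjusted p = 0.0320). The 9 hepatocyte markers had a median of 0.30 with 0 calls, and 0.13 without wild type 3, and the 3 tested platelet markers a median of -0.47 with 0 calls. Of the remaining marker lists, the 10 stellate cell genes had a median of -0.40 with 0 calls and 2 unadjusted p under 0.05, and -0.11 with 0 calls without wild type 3. The 5 tested erythroid genes had a median of -0.26 with 0 calls and 1 unadjusted p under 0.05, and -0.39 without wild type 3, where 1 passed in the higher direction. Sox9 of 3 cholangiocyte genes and Prtn3 of 4 neutrophil genes fell, and without wild type 3 the calls, each lower, were 1 of 2 and 2 of 4.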

How the data were processed

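The authors deposited 1 table of gene signal per liver, read counts divided by a size factor. The submitters' processing notes name STAR, HTSeq, DESeq2 and mm10 with no versions, and the labels' protocols name a TruSeq RNA v2 kit. No strand setting is given in the sources used here. F5, Serpinc1 and Plg share exon positions with another listed gene. Klkb1, Fgg and F13a1 share them with an annotated gene that the deposited list does not hold. The counts of these members carry that uncertainty. In every liver 100% of values were whole multiples of 1 step within 0.01 reads, and whole reads were recovered by dividing by it.

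Values were taken as log2(value + 1), a scale that understates the change of low genes, and the 12937 genes averaging at least 10 were tested with limma 3.58.1 (R 4.3.3, intensity trend, genotype as the only term), with Benjamini-Hochberg adjusted p under 0.05 over all of them. SE, intervals and adjusted p of single genes are limma's unless another tool is named. The alternatives included edgeR 4.0.16, which called 185 genes, and DESeq2 1.42.0 on the recovered reads, other scalings, filters and pseudocounts, and each liver left out in turn. Every member was accounted for, and values per liver are given for those with an unadjusted p under 0.05 or without overlap, and for the smallest p of each role. The members and all lists, and the split by source of the protein, were chosen with earlier results of these data known. Labels give an animal number and no batch or litter. Deviations of same-numbered animals correlated at 0.0246, -0.0770, -0.102 and 0.218, so numbers were not taken as pairs. No 2 libraries of a genotype agreed within sampling noise (lowest chi-square per degree of freedom 19.7). Adjusted p values come from tests that set the genotype difference against the spread between animals, and depths cover counting error only. Positions and principal transcript lengths are from GENCODE M21 (GRCm38), matched by symbol for 16917 genes with 525 unmatched. The statistics were tested on simulated data. A gene of the transcription factor list is not reported here.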

Additional observations from a re-analysis of the deposited data

Results flagged for a closer look

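In 7 of 72 groups of livers tested, 1 liver stood far from the rest of its genotype relative to the group's whole range. Chance gives this in about 1 in 20 groups. Of the 7, 3 are in wild type 3. F7 stood at 436 normalised reads in wild type 3, against 956 to 1062 in the other wild-type livers. Procr stood at 45.5 in wild type 3, against 12.7 to 17.1, and Plat at 38.4, against 2.11 to 6.42. Kng2 stood at 2763 in wild type 4, against 4082 to 4179 in the other wild-type livers, and Serpind1 at 7464 in wild type 1, against 5175 to 5413. In the Msr1-/- group, F3 stood at 163 in Msr1-/- 1, against 91.2 to 106 in the others, and F2 at 25221 in Msr1-/- 5, against 20079 to 21399.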

How the results depend on the processing

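Over the 22 alternatives, the count of the 32 genes called was 0 in all but DESeq2 without wild type 3, where it was 1 (F11). The number of all genes called moved from 177 to 531 with array weights, 773 in DESeq2, 656 in edgeR without wild type 3 and 1059 in DESeq2 without wild type 3, and ran from 36 to 629 on leaving out 1 liver, the highest being without wild type 3. The replicate block, a fit paired by animal number, called 8 genes and 0 of the 32. Msr1-/- 5 has no wild-type animal of its number, so its values add nothing to the genotype difference in that fit. Leaving Msr1-/- 5 out of the unpaired fit called 65 genes. Total-count scaling, chosen after seeing the data, shifted the median of all genes to -0.09 on the log2 scale and called 39 genes higher and 106 lower, beside 86 and 91 in the deposited scaling. It left 10 of the 32 positive and 22 negative, against 15 and 17, and made wild type 3 the lowest liver for 8 of the 24 plasma protein genes, against 14. Quantile normalization gave 11 positive and 21 negative with a median of -0.13, and array weights, edgeR and DESeq2 12 and 20 each. On leaving out 1 liver the positive count ran from 12 to 19. The Fgl1 call was also lost in the replicate block (log2 difference -2.69, limma adjusted p = 0.105). Of 242 values over 11 named genes, 225 kept their direction and their side of the threshold and 8 changed sign. F2r was -0.0225 without wild type 3 in limma, -0.0405 in edgeR and -0.0344 in DESeq2, and from -0.0225 to 0.258 on leaving out 1 liver. On leaving out 1 liver F11 ran from -0.596 to 0.171, Klkb1 from -0.330 to 0.049 and F10 from -0.309 to 0.0244. F11 was 0.157 without wild type 1 and Klkb1 0.0161 without wild type 2. The cause of these changes was not tested. With no filter on low values F13a1, Plat and Plaur were tested too, and 0 of the 35 were called. At under 10 normalised reads on average, counting error is large for these 3.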
